A study of Mus musculus with 12 samples.

Results

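The bone morphogenetic protein (BMP), TGF-beta and activin superfamily was taken from the mouse gene symbols of the count tables. It held every Bmp, Gdf, Tgfb, Tgfbr and Smad symbol with a number after that stem. Tgfb and Smad symbols had to end with that digit. Every symbol that starts with Bmpr, Acvr or Inhb was also taken, together with Nog, Grem1, Fst, Chrd and Bmper. This gave 54 of 24062 genes. Expression was measured by RNA sequencing of whole kidneys at postnatal day 3, with 3 kidneys in each of 4 groups and 12 kidneys in all. LIN28B Wt1 kidneys carried a human LIN28B transgene that doxycycline induces in cells with a Wt1-Cre history, which include the nephron progenitors and stroma of the metanephric mesenchyme and the podocytes, and the study induced it with a brief pulse late in gestation. Their controls were littermates, and both groups were on the C57BL/6 strain. The let-7 KO kidneys lacked let-7a1, let-7d and let-7f1 in every cell, so other genes of the let-7 family remained. These mice and their wild-type littermates were on a mixed background of CD1 and C57BL/6. Each group came from 2 litters.

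Ligands of the superfamily are secreted dimers that bring type I and type II receptor kinases together on the cell surface. The receptors phosphorylate receptor Smads, with Smad1, Smad5 and Smad9 serving BMP receptors and Smad2 and Smad3 serving TGF-beta and activin receptors, and these join Smad4 to act on genes in the nucleus. Secreted antagonists and the inhibitory Smads hold the signal back. In the developing kidney Bmp7 keeps nephron progenitors alive, Gdf11 is needed for outgrowth of the ureteric bud, and Grem1 limits Bmp4 so that the bud can branch. LIN28B blocks the maturation of let-7, a microRNA family that represses messages through short matches in their 3′ untranslated regions, and Tgfbr1 and Acvr2b are candidate targets.

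The 3 deleted microRNAs are shown because they share the seed, bases 2 to 8, that pairs with all or part of those matches. The mature sequences are from RefSeq (GRCm38.p6), with the seed in capitals, and lie on chromosome 13 at 48538239 to 48538260 (let-7a), 48536078 to 48536099 (let-7d) and 48537889 to 48537910 (let-7f), all on the minus strand.
let-7a-5p: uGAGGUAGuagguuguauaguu
let-7d-5p: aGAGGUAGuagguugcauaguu
let-7f-5p: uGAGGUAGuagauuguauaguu
Their seeds were identical, so pairing of a match with the seed is the same for all 3. The match CTACCTC pairs with bases 2 to 8, and TACCTCA with bases 2 to 7. The last A of TACCTCA lies opposite the first base, which was u in let-7a and let-7f and a in let-7d. The next sequences are 30-base stretches around let-7 matches in the annotated 3′ UTRs of the candidate receptors and of Smad5 (GENCODE M21, GRCm38, plus strand), written 5′ to 3′ with the matching letters in capitals. The 8-base match of Tgfbr1 lies at chr4:47410843-47410850, bases 66 to 73 of its 3′ UTR. The 7-base match of Acvr2b lies at chr9:119434873-119434879, bases 1412 to 1418 of a 3′ UTR of 1534, and that of Smad5 at chr13:56740549-56740555.
Tgfbr1: ggctggttgttCTACCTCActgagagaaca
Acvr2b: tcaaaccagaaaTACCTCAgaattttctac
Smad5: aacacttggggtTACCTCAcagtctcccta
Tgfbr1 therefore held the longer match near the start of its 3′ UTR and Acvr2b a shorter one near the end. Tgfbr1 also held a 7-base match, TACCTCA, not shown, at bases 3706 to 3712 of a 3′ UTR of 4154. These letters are a description of the sequence and do not show that let-7 binds there.

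Total counts ran from 39926235 to 61872736 per kidney. A count of 3, taken as the limit that a count of 0 allows, corresponded to 0.0485 to 0.0751 CPM, counts scaled to the total of each kidney, and such limits cover counting error only. Hmga2, a well-known let-7 target, had 9474 to 12669 counts in LIN28B Wt1 kidneys against 630 to 860 in controls, and 742 to 1170 in let-7 KO against 420 to 616 in WT kidneys. Mirlet7a-1, Mirlet7d and Mirlet7f-1 had 0 counts in all 3 let-7 KO kidneys, but they had at most 35 in WT kidneys, so this is a weak check. The human transgene is not a row of the mouse tables. Levels below are CPM after TMM normalization over the 12 kidneys, and differences are log2 fold changes from edgeR's quasi-likelihood test in each model alone, called at p below 0.01, with p adjusted over all genes tested. With 3 kidneys against 3, an exact permutation test of a single gene cannot give a p below 0.1. Cell type markers moved in LIN28B Wt1 kidneys, and some moved in let-7 KO kidneys. Of 8 cap mesenchyme markers, which mark nephron progenitors, 7 were called higher in LIN28B Wt1, and their summed level was 420 to 581 CPM against 180 to 213. Of 4 endothelial markers, 3 were called lower, with a summed level of 203 to 218 against 289 to 329. Also called lower were 3 of 5 proximal tubule markers and 3 of 3 markers of the thick limb and distal tubule. In let-7 KO the proximal tubule sum was 1974 to 2325 CPM against 2434 to 2889 in WT, with 1 marker called lower. The thick limb and distal tubule sum was 599 to 1086.5 CPM against 1089 to 1261, with 0 called. Sums of the other lists overlapped in the let-7 model. Calb1, a ureteric tip and collecting duct marker, was called lower in both models, at -0.73 and -0.88. Kidney markers were abundant in every library, with a summed level of the 5 podocyte markers of at least 283 CPM, while the 4 adrenal markers summed to at most 4.90 CPM. The 3 adipocyte markers summed to 47.1, 52.1 and 6.17 CPM in the LIN28B controls. They reached at most 7.94 CPM in LIN28B Wt1 and at most 5.93 CPM in let-7 kidneys. The part of fat tissue in differences that involve the LIN28B controls was not tested. In whole kidneys, fewer cells of a type and less RNA per cell cannot be told apart.

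Few members were called in either model. In LIN28B Wt1 kidneys 3 of the 47 members tested were called, which is 6.38% against 7.33% of all 15793 genes tested. The receptor Acvr2b and the signal carrier Smad5 rose, while 3.25% of all genes were called higher. The endothelial receptor Acvrl1 fell, while 4.08% of all genes were called lower. Acvr2b alone had an adjusted p below 0.05, as 1.23% of all genes did. In let-7 KO kidneys 1 of 44 members was called, 2.27% against 2.73% of all 15500 genes. That member was Gdf15, which fell, as 1.63% of all genes did. At an adjusted p below 0.05 the count was 0 of 44 in edgeR's test, against 0.0194% of all genes, and 0 in DESeq2, while 5 members had an unadjusted edgeR p below 0.05. Of the 43 members tested in both models, 0 were called in both by edgeR, where 0.865% of all genes were. With DESeq2 1 was, Acvr2b, and 2, Acvr2b and Smad1, had an unadjusted edgeR p below 0.05 in both. The shares of members called lay near those of all genes, so the count says nothing particular of the superfamily.

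The median log2 fold change of members was -0.16 in LIN28B Wt1, where that of all genes was -0.02, and 29 of 47 were below 0. It was -0.22 in let-7 KO, where that of all genes was -0.02, and 26 of 44 were below 0. Groups did not overlap for 13 of 47 members in the LIN28B model, 2 with the mutant kidneys above and 11 below, or 27.7% against 23.8% of all genes. In the let-7 model this held for 8 of 44 members, 1 above and 7 below, or 18.2% against 16.7% of all genes. In 4 of the 43 members tested in both models, or 9.30% against 4.55% of all genes, the groups were apart in the same direction in both. These were Acvr2b, above, and Bmp6, Smad1 and Smad7, below. A covariate for each kidney's bias with transcript length brought the median of members to -0.06 in LIN28B Wt1 and to -0.05 in let-7 KO.

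**Figure D1:**
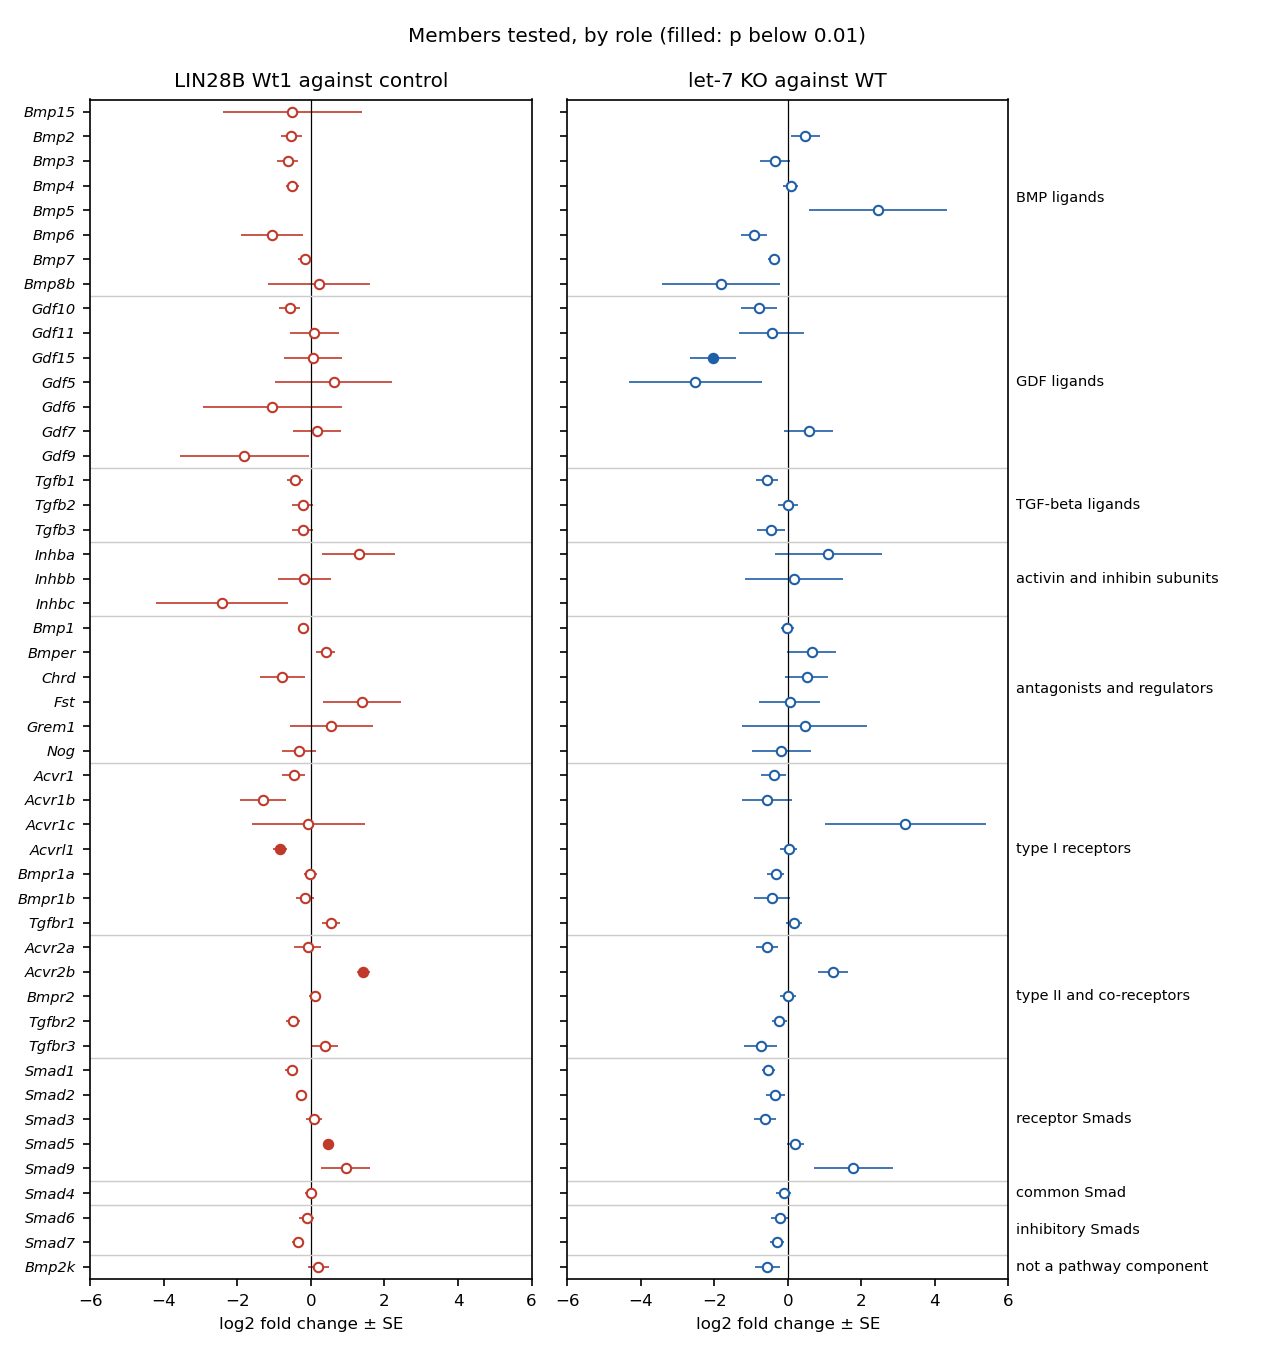
Log2 fold change with its standard error (horizontal axis) of each member tested, grouped by role, in LIN28B Wt1 against control kidneys (left) and let-7 KO against WT kidneys (right), with filled points for p below 0.01. Most points lie near 0, and the filled points are Acvr2b, Smad5 and Acvrl1 on the left and Gdf15 on the right.

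Acvr2b encodes a type II receptor for activins, GDF11 and several BMPs, and it showed the largest rise of any called member. Its level was 23.2, 25.7 and 27.2 CPM in the 3 LIN28B controls and 76.8, 71.5 and 56.1 CPM in the 3 LIN28B Wt1 kidneys. Every LIN28B Wt1 kidney lay above every control, with means of 68.1 ± 10.7 against 25.4 ± 2.03 CPM (SD, n = 3 each). The log2 fold change was 1.43 (SE 0.18, edgeR adjusted p = 0.00793). The log2 ratio of mutant to control level was 1.60 in the first litter and 1.04 in the second. Acvr2b was called under every alternative fit tried for this model, those that left out a kidney included.

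In the let-7 model Acvr2b was at 9.42, 17.0 and 16.6 CPM in WT kidneys and at 20.4, 24.9 and 56.8 CPM in KO kidneys. All 3 KO kidneys were above all 3 WT kidneys, but 1 of them stood far above the other two. The log2 fold change was 1.23 (SE 0.40, edgeR adjusted p = 0.369), which missed the threshold for a call. It was called with DESeq2, at 1.26, without a filter, with at least 1 CPM in every kidney, in one fit of all 12 kidneys, at 1.25, and without let-7 KO replicate 1 (1.48) or replicate 2 (1.41). It was not called with upper-quartile normalization, with litter as a replicate block, at 1.09, or without any one of the WT kidneys. Without the highest kidney, let-7 KO replicate 3, it was 0.65 (SE 0.34). That kidney also had the lowest total count and the lowest slope of level on transcript length, -0.17, where the other let-7 kidneys ran from -0.13 to 0.12. With the length covariate the value was 0.73 (SE 0.50), and the part of length bias in the result was not tested further. The rise in LIN28B Wt1 and the difference in let-7 KO were not shown to differ, with a log2 difference between models of 0.18 (SE 0.47), which was not called.

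The markers of cap mesenchyme, the nephron progenitor tissue, were read beside Acvr2b. In the LIN28B model their summed level and Acvr2b both separated the groups. In the let-7 model the marker sum was 176 to 194 CPM in KO and 128 to 202 CPM in WT kidneys, which overlapped. Itga8, a marker with a log2 fold change of -0.32 that was not called, made up 37.4% to 74.2% of that sum in the let-7 kidneys. Without Itga8, a choice made after seeing the data, the sum of the other 7 markers was 79.1 to 121 CPM in KO and 52.1 to 53.4 CPM in WT kidneys, so the groups were apart. These 7 markers all had log2 fold changes above 0, and the median of the 8 was 0.79. Gdnf, the growth factor that draws out the ureteric bud, was the 1 cap mesenchyme marker called, higher by 2.20 on the log2 scale. Cited1 was at 1.13 (SE 0.40), with KO kidneys above WT kidneys and no call. The KO kidney with 56.8 CPM of Acvr2b had the highest sum of these 7 markers among the let-7 kidneys and the lowest Itga8, at 72.4 CPM. Acvr2b was higher in every mutant kidney than in any control or WT kidney of the same model. The marker sum separated the groups in the same way in the LIN28B model, with or without Itga8. In the let-7 model it did so only without Itga8, so the match with Acvr2b there rests on that later choice. The part of cell composition in the level of Acvr2b was not tested.

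**Figure D2:**
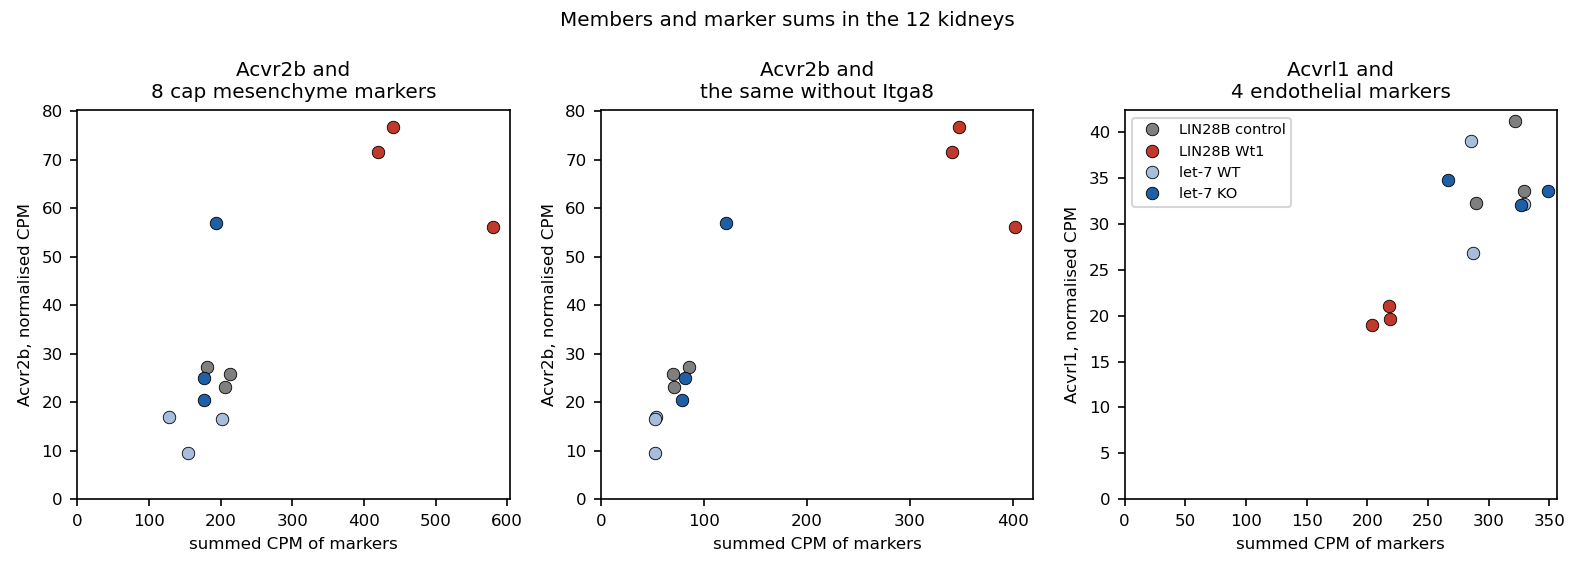
Level of Acvr2b against the summed level of 8 cap mesenchyme markers (left) and of the same markers without Itga8 (middle), and of Acvrl1 against that of 4 endothelial markers (right), in CPM, with a point for each of the 12 kidneys. The LIN28B Wt1 kidneys stand apart in the marker sums, and 1 let-7 KO kidney, at 56.8 CPM of Acvr2b, lies within their range of 56.1 to 76.8 CPM at a lower cap mesenchyme sum.

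The other type II receptors and the co-receptor were called in neither model. Bmpr2, the main type II receptor for BMPs, was at 43.9 to 52.2 CPM in LIN28B controls and 48.2 to 58.1 CPM in LIN28B Wt1 (log2 fold change 0.10, SE 0.16). Acvr2a, the close relative of Acvr2b, had 2 let-7 matches of 7 bases in its 3′ UTR, and its log2 fold change was -0.09 (SE 0.36) in LIN28B Wt1 and -0.56 (SE 0.30) in let-7 KO. Tgfbr2, which binds the TGF-beta ligands, had values of -0.50 (SE 0.19, edgeR adjusted p = 0.217) and -0.23 (SE 0.21). Tgfbr3, a co-receptor with an 8-base let-7 match, had values of 0.38 (SE 0.37) and -0.74 (SE 0.45). Acvr2b was thus the single type II receptor called.

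Tgfbr1, the type I receptor for TGF-beta, was at 90.7, 75.8 and 56.5 CPM in LIN28B controls and at 100.4, 82.1 and 142.6 CPM in LIN28B Wt1 kidneys. It was at 61.4, 56.9 and 81.7 CPM in let-7 WT and, in KO kidneys, at 94.0, 69.2 and 64.4 CPM. The groups overlapped in both models, and 1 LIN28B Wt1 kidney was well above the rest. The log2 fold change was 0.55 (SE 0.24, edgeR adjusted p = 0.268) in LIN28B Wt1 and 0.17 (SE 0.22, edgeR adjusted p = 0.824) in let-7 KO, so neither passed the threshold. Within the first LIN28B litter the log2 ratio was 0.13, and within the second, which holds the high kidney, it was 1.33. With the length covariate the LIN28B value was 0.80 (SE 0.13), which passed. Without LIN28B Wt1 replicate 3 it was 0.29.

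Acvrl1, also called ALK1, is the type I receptor through which endothelial cells respond to BMP9 and BMP10. Its level was 33.6, 41.3 and 32.3 CPM in LIN28B controls and 21.05, 19.67 and 19.03 CPM in LIN28B Wt1 kidneys. All mutant kidneys lay below all controls, and the 3 mutant values were within a narrow range. The log2 fold change was -0.84 (SE 0.19, edgeR adjusted p = 0.0626). In let-7 WT kidneys it was at 32.1, 39.0 and 26.8 CPM and in KO kidneys at 32.1, 33.6 and 34.8 CPM, which overlapped (log2 fold change 0.02, SE 0.23).

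The difference between the models was tested in a fit of all 12 kidneys, in which 1 of 49 members was called, or 2.04% against 1.55% of all 16598 genes. Acvrl1 was that member, with a log2 difference of -0.88 (SE 0.28, edgeR adjusted p = 0.570). The call was lost when certain single kidneys were left out, in 8 of 12 cases. Of the 4 endothelial markers, Pecam1, Kdr and Emcn were lower in LIN28B Wt1, with log2 fold changes of -0.68, -0.65 and -0.48, and Cdh5 had -0.31. In let-7 KO 0 of the 4 were called by edgeR or DESeq2, and 0 had an unadjusted p below 0.05, and their summed level was 266 to 349 CPM against 285 to 329 in WT. The part of the endothelial content in the fall of Acvrl1 was not tested. Its ligands Gdf2, which encodes BMP9, and Bmp10 had 0 counts in every kidney.

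The remaining type I receptors were not called. Bmpr1a, a type I receptor for BMPs, was with Tgfbr1 the most abundant type I receptor per length, at means of 15.1 and 14.1 CPM per kb of transcript over the 12 kidneys, with Tgfbr1 the higher in both mutant groups, and its log2 fold change was -0.02 (SE 0.18) in LIN28B Wt1 and -0.33 (SE 0.24) in let-7 KO. Acvr1b, the activin receptor ALK4, was low, at 1.83 to 3.99 CPM in LIN28B controls and 0.804 to 1.60 CPM in LIN28B Wt1, groups that did not overlap (log2 fold change -1.31, SE 0.63, edgeR adjusted p = 0.314). Acvr1 and Bmpr1b had values of -0.46 and -0.16 in LIN28B Wt1. Acvr1c was detected at no more than 1.09 CPM in any kidney, and its 2 values, -0.07 and 3.19, had standard errors of 1.53 and 2.19. In the LIN28B model 6 of the 7 type I receptors were below 0, with a median of -0.16.

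**Figure D3:**
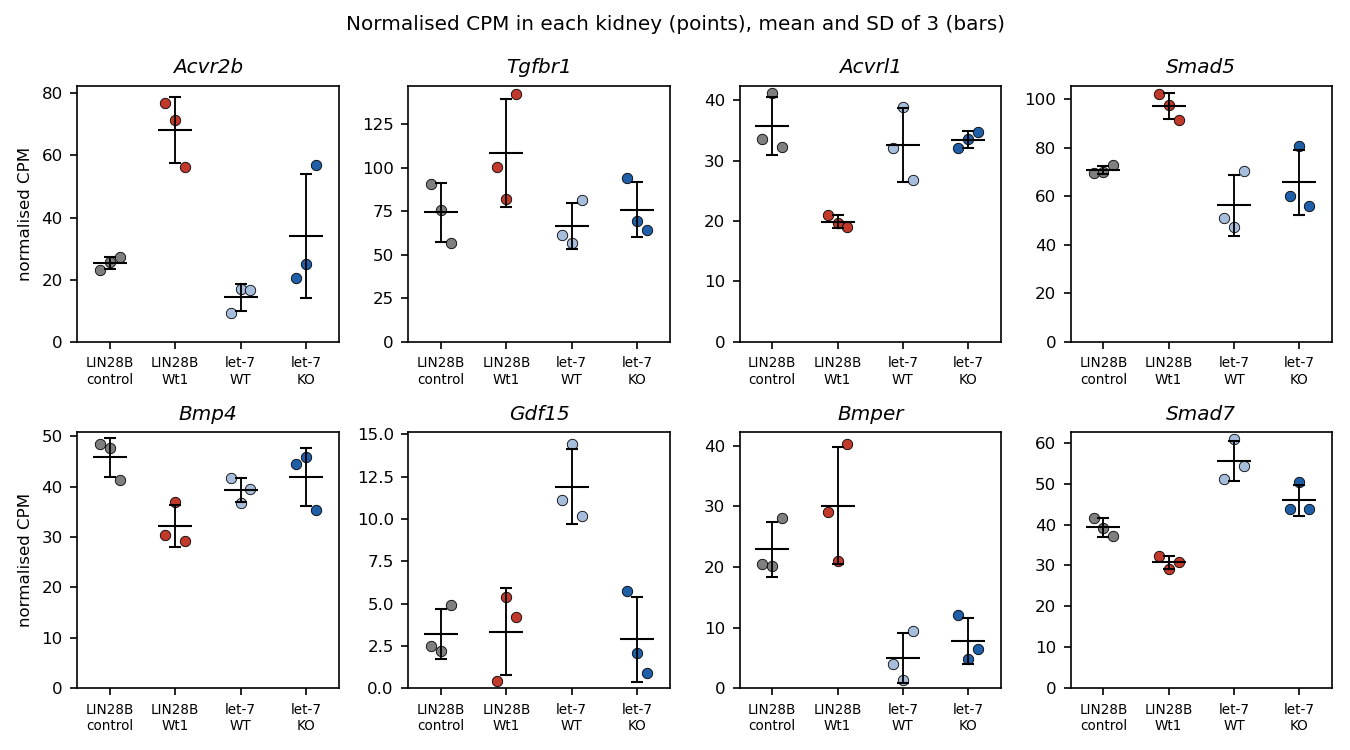
Normalised CPM (vertical axis, from 0) of 8 members in each kidney of the 4 groups, with the mean and SD of 3 kidneys. Acvr2b is higher in both mutant groups than in their littermates, Acvrl1 is lower in LIN28B Wt1, Gdf15 is high in let-7 WT kidneys, and Bmper is low in both mixed-strain groups.

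Smad5, a receptor Smad of the BMP branch, was at 69.5, 69.9 and 72.6 CPM in LIN28B controls and at 102.2, 97.4 and 91.4 CPM in LIN28B Wt1 kidneys. The groups were apart, and the rise was small, with a log2 fold change of 0.46 (SE 0.13, edgeR adjusted p = 0.119). With litter as a replicate block the value was 0.46 (SE 0.14) and the call was lost. In the let-7 model it was at 50.9, 47.3 and 70.3 CPM in WT kidneys and at 60.0, 80.8 and 56.0 CPM in KO kidneys, which overlapped (log2 fold change 0.21, SE 0.23). The call in LIN28B Wt1 was also lost in one fit of all 12 kidneys and without any one of 5 of the 6 kidneys, where values ran from 0.42 to 0.50.

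Smad1 does the same work as Smad5, and its values lay the other way. It was at 111, 101 and 99.2 CPM in LIN28B controls and at 55.0, 76.1 and 85.0 CPM in LIN28B Wt1 kidneys. In let-7 WT kidneys it was at 95.3, 98.95 and 97.8 CPM, and in KO kidneys at 72.8, 68.1 and 64.2 CPM. Mutant kidneys lay below littermates in both models. Neither log2 fold change passed the threshold, at -0.52 (SE 0.18, edgeR adjusted p = 0.171) in LIN28B Wt1 and -0.53 (SE 0.17, edgeR adjusted p = 0.366) in let-7 KO. Smad1 was called lower in both models in one fit of all 12 kidneys, in let-7 KO also with DESeq2 and without let-7 KO replicate 1, and in LIN28B Wt1 without LIN28B Wt1 replicate 3. Smad9, the least abundant of this branch, was at 0.597 to 3.13 CPM in LIN28B controls and 2.64 to 5.05 CPM in LIN28B Wt1 (log2 fold change 0.95, SE 0.67).

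Smad4, the partner of every receptor Smad, was the most abundant member per length, at a mean of 40.4 CPM per kb of transcript over the 12 kidneys. It was at 144, 134 and 152 CPM in LIN28B controls, 129, 126 and 174 CPM in LIN28B Wt1, 139, 129 and 135 CPM in let-7 WT and 155, 127 and 95.3 CPM in let-7 KO kidneys. The groups overlapped throughout, with log2 fold changes of 0.00 (SE 0.16) and -0.11 (SE 0.20). Smad2 and Smad3, of the TGF-beta branch, had values of -0.27 and 0.08 in LIN28B Wt1 and of -0.34 and -0.62 in let-7 KO, and none was called. The inhibitory Smad7 was lower in every mutant kidney than in its littermates, at 29.1 to 32.4 against 37.2 to 41.7 CPM and at 43.7 to 50.3 against 51.2 to 60.9 CPM. Its log2 fold changes of -0.35 (SE 0.16, edgeR adjusted p = 0.299) and -0.29 (SE 0.19, edgeR adjusted p = 0.611) were not called. Smad6 had values of -0.12 and -0.21.

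Among the ligands no BMP was called in either model. Of the 7 BMP ligands tested in LIN28B Wt1, 6 were below 0, with a median of -0.51. Bmp4, made by stroma around the ureteric bud, was at 48.4, 47.7 and 41.4 CPM in LIN28B controls and at 30.4, 37.0 and 29.2 CPM in LIN28B Wt1 kidneys. All mutant kidneys lay below all controls, at a log2 fold change of -0.51 (SE 0.17, edgeR adjusted p = 0.163). Of the 7 stromal markers 2, Pdgfrb (-0.81) and Pdgfra (-0.69), were called lower in these kidneys and 0 higher, with 2 more, Foxd1 (0.70) and Meis1 (0.46), higher in every LIN28B Wt1 kidney than in any control but not called. Their summed level was 2303 to 2896 CPM against 2818 to 3328 CPM in controls, and its part in the level of Bmp4 was not tested. Bmp4 was at 41.7, 36.8 and 39.6 CPM in let-7 WT and at 44.6, 45.8 and 35.4 CPM in let-7 KO kidneys (log2 fold change 0.07, SE 0.21).

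Bmp7, the survival factor of the nephron progenitors, was the most abundant ligand per length, at a mean of 27.9 CPM per kb. It was at 102, 116 and 106 CPM in LIN28B controls and at 101, 71.2 and 116 CPM in LIN28B Wt1 kidneys, and the groups overlapped (log2 fold change -0.16, SE 0.19). In the let-7 model it was at 128, 103 and 115 CPM in WT kidneys and at 91.6, 85.3 and 92.0 CPM in KO kidneys. The KO kidneys lay below the WT kidneys, at a log2 fold change of -0.38 (SE 0.17, edgeR adjusted p = 0.452). Bmp6 was lower in the mutant kidneys of both models without overlap, at -1.07 (SE 0.84) and -0.92 (SE 0.35, edgeR adjusted p = 0.395), but 1 LIN28B Wt1 kidney was at 0.337 CPM while the other two were at 9.20 and 13.4 CPM. Bmp2 and Bmp3 had values of -0.53 and -0.64 in LIN28B Wt1 and of 0.47 and -0.35 in let-7 KO.

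Gdf15, a distant member that circulates as a stress signal, was the single member called in let-7 KO. It was at 11.1, 14.4 and 10.2 CPM in WT kidneys and at 5.72, 2.07 and 0.891 CPM in KO kidneys. The KO kidneys all lay below the WT kidneys, with a log2 fold change of -2.04 (SE 0.62, edgeR adjusted p = 0.362). The LIN28B controls were at 2.52, 2.20 and 4.93 CPM and the LIN28B Wt1 kidneys at 0.458, 5.37 and 4.21 CPM, so the KO kidneys were near the level of the other model's kidneys and the WT kidneys of this model were the high group. Leaving out any one of 5 of the 6 kidneys ended the call. So did the length covariate, at -1.77 (SE 0.62), and one fit of all 12 kidneys, at -2.03 (SE 0.78). Where at least 1 CPM was required in every kidney, Gdf15 was not tested.

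Gdf11, which acts through Acvr2b, was scarce, at 2.91, 3.76 and 0.857 CPM in LIN28B controls and at 2.11, 4.001 and 1.93 CPM in LIN28B Wt1 kidneys. In let-7 WT kidneys it was at 2.66, 2.92 and 3.12 CPM and in KO kidneys at 4.83, 0.503 and 1.06 CPM. The groups overlapped, with log2 fold changes of 0.09 (SE 0.67) and -0.44 (SE 0.89). The activin subunit genes Inhba and Inhbb reached at most 2.65 and 5.48 CPM and were not called. The TGF-beta genes Tgfb1, Tgfb2 and Tgfb3 had log2 fold changes of -0.43, -0.22 and -0.22 in LIN28B Wt1 and of -0.57, 0.01 and -0.45 in let-7 KO, none of them called. In Tgfb1 the LIN28B Wt1 kidneys, at 14.8 to 19.4 CPM, lay below the controls, at 21.4 to 24.9 CPM.

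Of the 54 members, 6 were tested in neither model because their counts were too low. Bmp10, Gdf1 and Gdf2 had 0 counts in all 12 kidneys, and Bmp8a, Gdf3 and Inhbe had at most 78 in any. Gdf1 shares exons with Cers1 on the same strand, so its 0 counts do not show that it is silent. Bmp8a and Bmp8b are near-identical copies, and reads of one may have gone to the other or been dropped. Bmp15, Gdf5, Gdf6 and Gdf9 were tested in at least one model at levels of no more than 2.39 CPM, and none was called. Bmp5 and Bmp8b reached 3.46 and 3.49 CPM, Bmp5 in a let-7 KO kidney, and Inhbc 1.63 CPM. Gdf7 and Gdf10 had log2 fold changes of 0.16 and -0.58 in LIN28B Wt1 and of 0.58 and -0.78 in let-7 KO, none of them called. Bmp2k, a kinase named for its induction by BMP2, carries the stem but belongs to no step of the pathway, and its values were 0.20 and -0.55.

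**Figure D4:**
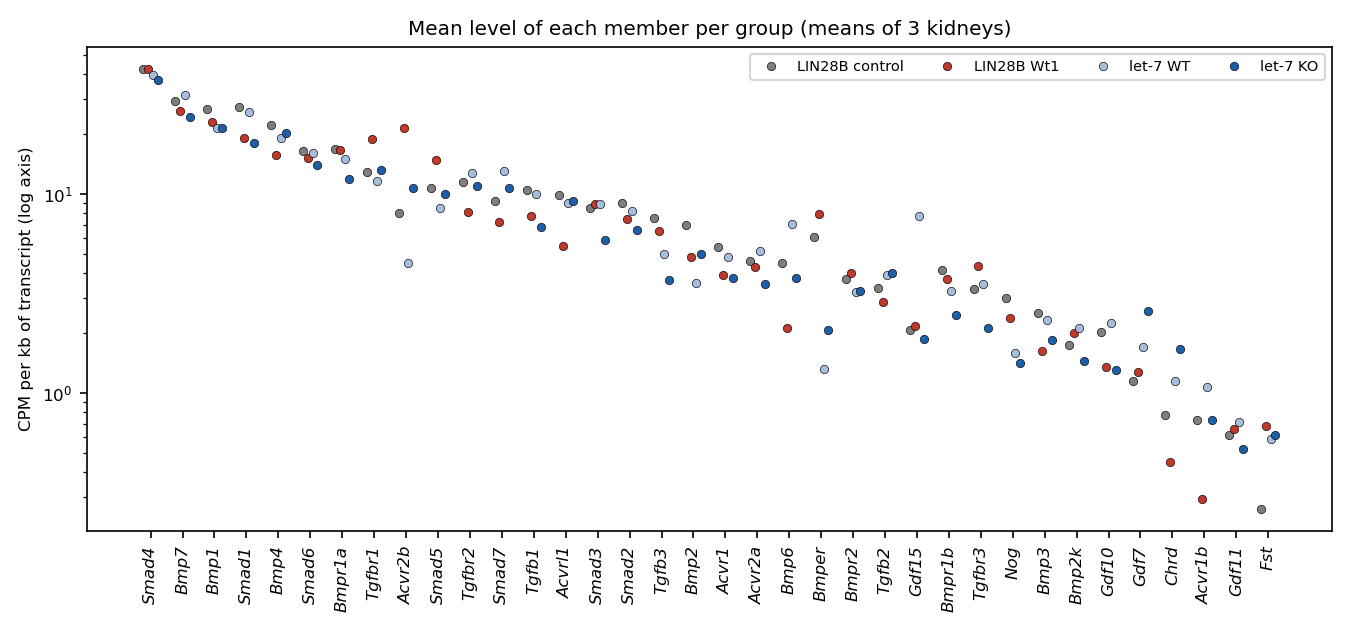
Mean level of the 36 members with at least 0.5 CPM per kb of transcript over all kidneys, in each of the 4 groups (log axis), ordered by that overall mean. Smad4, Bmp7, Bmp1 and Smad1 lead the order, and Acvr2b, Bmper and Gdf15 show the widest gaps between groups among the members above 3 CPM per kb.

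No antagonist or regulator was called in either model in the main fits. Bmper had log2 fold changes of 0.40 (SE 0.27) in LIN28B Wt1 and 0.65 (SE 0.66) in let-7 KO. It was called in let-7 KO with the length covariate and under no other alternative. Grem1 was at 1.04, 0.275 and 0.0761 CPM in LIN28B controls and at 0.719, 0.804 and 0.543 CPM in LIN28B Wt1 kidneys. In let-7 WT kidneys it was at 0.767, 0 and 1.48 CPM and in KO kidneys at 1.59, 1.47 and 0.0279 CPM. These levels were too low and too scattered for a difference to be detectable, with log2 fold changes of 0.56 (SE 1.14) and 0.46 (SE 1.69). Nog, Chrd and Fst, which bind BMPs or activins, had values of -0.33, -0.78 and 1.39 in LIN28B Wt1 and of -0.18, 0.51 and 0.06 in let-7 KO. Bmp1, a protease that cleaves Chrd, was among the most abundant members and had values of -0.21 and -0.01.

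The controls of the models differ in strain, litter and experiment, which cannot be told apart. Between let-7 WT and LIN28B control kidneys 2 of 49 members were called, 4.08% against 3.32% of all genes. Bmper, which binds BMPs and can block or aid them, was at 3.97, 1.45 and 9.52 CPM in let-7 WT kidneys and at 20.6, 20.1 and 28.1 CPM in LIN28B controls. The groups did not overlap, at a log2 difference of -2.20 (SE 0.54, edgeR adjusted p = 0.0942). The let-7 KO kidneys, at 4.87 to 12.2 CPM, were low as well, and the LIN28B Wt1 kidneys, at 21.1 to 40.2 CPM, were high. Smad7 was at 51.2, 60.9 and 54.4 CPM in let-7 WT and at 41.7, 39.1 and 37.2 CPM in LIN28B controls (log2 difference 0.50, SE 0.16, edgeR adjusted p = 0.275). Acvr2b was lower in let-7 WT than in LIN28B control kidneys without overlap, at -0.83 (SE 0.34, edgeR adjusted p = 0.428), so its level in let-7 KO kidneys, at 34.04 ± 19.85 CPM (SD, n = 3), spanned that of the LIN28B controls.

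Matches to the let-7 seed were compared with the direction of change over all members. Either 7-base match, CTACCTC or TACCTCA, was present in the longest annotated coding 3′ UTR of 14 of the 54 members, and their 8-base union CTACCTCA in 4 of them, Acvr1c, Gdf6, Tgfbr1 and Tgfbr3. Only the sense strand of the 3′ UTR was searched, and the 8-base match holds both 7-base matches. Among members tested in LIN28B Wt1 12 of 47 held a 7-base match, 25.5% against 16.6% of all genes tested that have a 3′ UTR, and the members' 3′ UTRs had a median of 1859 bases against 1138. Of these 12 members 6 were above 0 in LIN28B Wt1, with a median log2 fold change of 0.01, where the others had -0.21. Over all genes tested the medians were 0.01 with a match and -0.03 without. In let-7 KO 5 of 12 were above 0, with a median of -0.39, where the others had -0.20. Over all genes the medians there were -0.07 with a match and -0.02 without. Acvr2b and Smad5, the members called higher in LIN28B Wt1, each held TACCTCA. Acvr2a, Gdf11, Acvr1b, Smad2, Gdf10 and Bmp8b held 7-base matches and were not called. The 4 members with the 8-base match were not called either in the main fits. In let-7 KO no member with a match was called in the main fit.

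Beyond the members, 68 of 70 listed genes of the pathway were in the tables. In LIN28B Wt1 0 of the 61 tested were called higher and 4 lower in edgeR's test, or 6.56% in all against 7.33% of all genes, with a median of -0.23 against -0.02 for all genes. Of those above 0, 1 had an unadjusted edgeR p below 0.05 and 1 was called by DESeq2. Furin, which cuts the ligand precursors, fell by 0.87 (SE 0.17, edgeR adjusted p = 0.0481). Ltbp4, which stores latent TGF-beta in the matrix, fell by 0.97 (SE 0.28), and Nbl1, a BMP antagonist, fell by 0.52 (SE 0.15). In let-7 KO 2 of 60 were called higher and 3 lower, 8.33% against the 2.73% of all genes, with a median of -0.08. Fbn2, a matrix fibrillin that binds the ligands, rose by 0.75 (SE 0.20), and the antagonist Lefty1 was called higher from 0.0170, 0 and 0 CPM in WT to 1.24, 0.727 and 0.641 CPM in KO kidneys, while the LIN28B controls were at 1.95, 0.964 and 1.33 CPM. Ski, a repressor of Smads, and Hipk2 fell by 0.65 (SE 0.20) and 0.67 (SE 0.19).

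Ctgf, a widely used target gene of TGF-beta signaling that also answers to other pathways, was the 1 listed gene called in both models, as 0.865% of all genes were. It was at 53.9, 70.6 and 47.8 CPM in LIN28B controls and at 33.5, 41.4 and 34.5 CPM in LIN28B Wt1 kidneys. In let-7 WT kidneys it was at 81.6, 77.6 and 81.0 CPM and in KO kidneys at 52.2, 51.3 and 48.6 CPM. Mutant kidneys lay below their littermates in both models, at log2 fold changes of -0.65 (SE 0.19, edgeR adjusted p = 0.121) and -0.68 (SE 0.17, edgeR adjusted p = 0.362). Tgfbi, also on the list, went the other way without a call. Its mutant kidneys lay above their littermates in both models, at 0.20 (SE 0.14) and 0.41 (SE 0.16). For Cyr61, Id1 and Id3 the groups overlapped in both models. Id4 and Bambi were lower without overlap in LIN28B Wt1 only, at -0.37 (SE 0.14) and -0.39 (SE 0.16). Id2 was lower without overlap in let-7 KO only, at -0.30 (SE 0.18). None of these was called. The listed genes did not move together, so Ctgf alone does not describe the output of the pathway.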

How the data were processed

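Whole-kidney RNA was sequenced in 12 mouse kidneys (SMARTer Ultra Low kit, Illumina HiSeq per the study's methods). The authors deposited raw counts per gene symbol for each kidney; the submitters' processing notes name cutadapt, TopHat2 2.0.9, Bowtie2, SAMtools 0.1.19, HTSeq and mm10. The counting options for strand and shared reads are not given in the sources used here. Groups and litters came from the sample labels. The members and lists were chosen with earlier results of these data known. Genes named with a value in every kidney were Tgfbr1, Acvr2b, Bmp7, Gdf11, Bmp4, Grem1, Smad4 and members with p below 0.01 in a model or in the difference between models. Smad1, Bmper and Smad7 were singled out after their values were seen. Other pathway genes were named where called, and Tgfbi, Cyr61, Bambi, Id1, Id2, Id3 and Id4 were named beside Ctgf without a call.

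Counts were fitted per model in edgeR 4.0.16 (R 4.3.3) after filterByExpr (minimum count 10, minimum total count 15) and TMM normalization, with the quasi-likelihood test and Benjamini-Hochberg adjustment over all genes tested. The threshold of 0.01 follows the study. The SE was the log2 fold change over the square root of F. The difference between models and that between controls were contrasts in a fit of all 12 kidneys. P-values measure the spread between 3 kidneys from 2 litters. Lengths, exons and 3′ UTRs came from GENCODE M21 by symbol (23637 of 24062 matched, and all 54 members). Levels per kb used the longest coding transcript. Scripts were tested on simulated data. Alternatives were DESeq2 1.42.0, upper-quartile normalization, a litter block, a single fit of all kidneys, no filter or a filter of 1 CPM in each kidney, adjusted p below 0.05, a transcript-length covariate and each kidney left out. Litter numbers pair mutant and control kidneys by the labels, although deviations from group means did not correlate within litters in the pairing check (mean r = -0.04 in the LIN28B and 0.00 in the let-7 model).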

Additional observations from a re-analysis of the deposited data

Results flagged for a closer look

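Acvrl1 was the 1 member of 49 called in the test of the difference between the models, or 2.04% against 1.55% of all genes. Its log2 fold change in the LIN28B model minus that in the let-7 model was -0.88 (SE 0.28, edgeR adjusted p = 0.570). The call was lost in most fits that left out a kidney, so a difference between the models is not established. The level fell in LIN28B Wt1 kidneys (log2 fold change -0.84), while KO and WT kidneys of the let-7 model overlapped (0.02). No group had more than 3 kidneys, so single kidneys were not tested as outliers.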

How the results depend on the processing

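Calls rest on 3 kidneys per group, and most members near or below 1 CPM had standard errors near or above 1 on the log2 scale, so small or low changes were not detectable. Acvr2b in LIN28B Wt1 kidneys was called under every alternative fit, with log2 fold changes from 1.29 to 1.54, and Acvrl1 under all but 1 (without LIN28B control replicate 2, -0.73). The cause of the changes below was not tested.

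The 3 members called in LIN28B Wt1 became 1 at adjusted p below 0.05, and from 1 (without LIN28B control replicate 2) to 6 (without LIN28B Wt1 replicate 3) with a kidney left out. The 1 member called in let-7 KO became 3 with DESeq2, 2 without a filter, 2 in one fit of all 12 kidneys and 0 at adjusted p below 0.05, and ranged from 0 (without any of the let-7 WT kidneys) to 6 (without let-7 KO replicate 1). The count stayed at 1 but the member changed from Gdf15 to Acvr2b with at least 1 CPM in every kidney, and to Bmper with the length covariate. The 0 called in both models became 1 with DESeq2, without a filter and with at least 1 CPM in every kidney, and 2 in one fit of all kidneys, with a range of 0 to 1 when a kidney was left out. The 1 member called in the difference between models became 0 at adjusted p below 0.05, with a range of 0 to 2. The 2 members called between controls became 1 with upper-quartile normalization, without a filter and with at least 1 CPM in every kidney, and 0 at adjusted p below 0.05, with a range of 1 to 3; Bmper was the 1. The 4 other pathway genes called in LIN28B Wt1 became 1 at adjusted p below 0.05 and ranged from 1 (without LIN28B control replicate 2 or LIN28B Wt1 replicate 1) to 12 (without LIN28B Wt1 replicate 3). The 5 called in let-7 KO became 0 at adjusted p below 0.05 and ranged from 1 (without let-7 KO replicate 2) to 7 (without let-7 KO replicate 1).

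Directions turned only in comparisons where the member was not called. Smad4 in LIN28B Wt1 took -0.0036 with at least 1 CPM in every kidney, -0.015 with litter as a replicate block and -0.0025 in one fit of all kidneys, and -0.18 to 0.10 with a kidney left out. With the transcript-length covariate, Smad4 in let-7 KO took 0.10 and Acvrl1 took -0.16. With a kidney left out, the LIN28B values ranged from -0.33 to 0.028 for Bmp7, from -0.30 to 0.50 for Gdf11 and from -0.44 to 0.58 for Gdf15. The let-7 values then ranged from -0.029 to 0.34 for Tgfbr1, from -1.93 to 0.029 for Gdf11, from -0.13 to 1.41 for Grem1, from -0.30 to 0.065 for Smad4 and from -0.11 to 0.17 for Acvrl1. The litter block changed no other call among the members than that of Smad5.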
